A study of Mus musculus with 28 samples.

Results

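The genes described here are the mouse collagen genes, taken as every gene whose symbol has the form Col, a type number, the letter a and a chain number. The rule found 44 such genes among the 55416 genes of each table given in TPM (transcript abundance scaled for length, summing to 1000000 in each sample) and 36 among the 29413 genes of the BMP table, where the remaining 8 have no row. RNA was sequenced from small intestinal organoids of wild-type C57BL/6 mice, which are cultures grown from intestinal crypts in Matrigel and made of epithelial cells, and from mesenchymal cells of the duodenum. In the BMP table, 4 untreated organoid samples stand beside organoids given recombinant BMP2 (4 samples), BMP3, BMP4, BMP5 or BMP7 (3 samples each). A separate table holds 3 untreated organoid samples and 3 samples given recombinant Tgfb. Each ligand was used at 500 ng/ml for 24 h, and the crypts had been grown before that in ENR medium with no BMP or Tgfb. The mesenchymal cells came from a PdgfraH2BeGFP mouse, in which nuclear green fluorescent protein reports Pdgfra expression. One sample is labelled fresh and untreated. The other was immortalised with the E6 gene of human papillomavirus on a retrovirus, selected with puromycin, and sorted and expanded as the eGFP-high fraction. The labels do not say whether organoid samples of a group came from separate animals, so p-values measure only the spread between these samples.

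Collagens are extracellular proteins of 3 chains wound into a helix. Fibrillar collagens such as types I, III and V form the fibres of the stroma, type IV forms the network of basement membranes, type VII anchors epithelium to the stroma below, and types XV and XVIII (the multiplexins) sit in or next to basement membranes. BMPs and Tgfb are secreted ligands of 1 family that bind receptor kinases and act through SMAD transcription factors. In the gut, most fibrillar collagen is made by mesenchymal cells, while epithelial cells add basement membrane components.

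Values of the BMP table are normalised read counts, in which 1 read was worth 0.83 to 1.28 in a given sample. Depth was 21358620 to 24784834 reads per sample. Depth of the TPM tables is unknown. The organoid samples carried all 8 epithelial markers checked (Epcam, Cdh1, keratins and others). Of 10 mesenchymal markers, Dcn, Lum, Dpt and Twist2 have no row in the BMP table. The summed level of those markers was 6.22 to 15.97 in the controls and 37.94 to 52.93 with BMP2, and it was 4.75 to 28.68 with the other 4 ligands. The epithelial sum was 119000 to 135100 in the controls and 725400 to 941000 with BMP2, and it was 216500 to 420900 over the BMP4, BMP5 and BMP7 groups. The endothelial sum was 571.5 to 779.8 in the controls, 845.2 to 1041 with BMP2 and 869.8 to 1035 with BMP4, mostly Pecam1, and Cdh5 was at 0 in the controls and at 22.7 to 40.9 with BMP2. With BMP2, Pdgfra stood at 12.8 to 37.5 and Foxf2 at 7.95 to 29.4, where the controls had 0 to 1.78 and 0. Pdgfrb went the other way, at 2.66 to 14.2 in the controls and 0 to 1.27 with BMP2. Thy1, Twist1 and Foxf1 did not exceed 2.35 in either group. Immune marker sums were 14.11 to 24.88 in the controls, 22.37 to 46.55 with BMP2, 24.17 to 45.38 with BMP5 and 35.55 to 58.07 with BMP7, and glial sums were 18.96 to 22.42 in the controls and 31.99 to 44.3 with BMP2. The part of these markers in the collagen values below was not tested.

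The stretches of 250 bases just before the annotated start of 4 collagen genes are printed: Col27a1 and Col7a1 had the largest fold rises of the tested collagen genes with BMP2, Col15a1 was called with Tgfb and Col11a2 was lowered with BMP4. The windows of Col18a1, which also rose, overlap its exons and are not shown. They are RefSeq sequences of build GRCm38.p6, all on the plus strand and overlapping no annotated exon. The windows are chr4:63215162-63215411 (Col27a1), chr9:108953336-108953585 (Col7a1), chr4:47207762-47208011 (Col15a1) and chr17:34038888-34039137 (Col11a2). Capitals mark the SMAD box (CAGAC, or GTCTG on the other strand) and the TATA box (TATAAA, or TTTATA).
Col27a1: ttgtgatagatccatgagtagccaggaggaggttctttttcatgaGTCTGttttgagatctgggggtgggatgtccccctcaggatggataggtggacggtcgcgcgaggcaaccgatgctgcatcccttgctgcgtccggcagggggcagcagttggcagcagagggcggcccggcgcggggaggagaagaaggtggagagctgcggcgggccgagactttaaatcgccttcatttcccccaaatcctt
Col7a1: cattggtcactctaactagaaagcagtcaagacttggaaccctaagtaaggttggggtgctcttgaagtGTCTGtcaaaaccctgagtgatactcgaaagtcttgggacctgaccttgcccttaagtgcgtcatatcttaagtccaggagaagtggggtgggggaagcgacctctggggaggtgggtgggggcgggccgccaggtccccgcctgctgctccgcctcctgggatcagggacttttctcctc
Col15a1: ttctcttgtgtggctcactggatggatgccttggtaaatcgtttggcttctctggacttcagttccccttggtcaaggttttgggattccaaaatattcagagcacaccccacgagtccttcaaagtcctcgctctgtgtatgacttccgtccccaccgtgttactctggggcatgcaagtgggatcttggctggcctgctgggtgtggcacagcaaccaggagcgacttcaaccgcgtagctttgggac
Col11a2: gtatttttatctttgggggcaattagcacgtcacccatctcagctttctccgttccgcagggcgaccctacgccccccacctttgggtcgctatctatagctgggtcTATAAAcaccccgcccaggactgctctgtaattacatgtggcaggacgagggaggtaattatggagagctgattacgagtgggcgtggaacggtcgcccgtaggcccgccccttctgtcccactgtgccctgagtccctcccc

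The SMAD box stands 205 bases before the start of Col27a1 and 181 bases before that of Col7a1, in each case on the minus strand. Neither Col15a1 nor Col11a2 has these letters in the window, and Col11a2 has a TATA box 143 bases before its start. A SMAD box occurs in 17 of the 38 windows found for 35 collagen genes and in 42.2% of the 32851 RefSeq windows of this length, so its presence is common in promoters at large. GC content of the 4 windows is 59.6%, 56.4%, 53.6% and 57.6%, beside a median of 52.4% over those windows. A TATA box occurs in 5 of the 38 collagen windows and in 12.4% of the RefSeq windows. The GC box GGGCGG, left in lower case, was found in the windows of Col27a1, Col7a1 and Col11a2, in 22 of the 38 and in 32.7% overall. GGCGCC and TGANTCA were also searched on both strands, with no match in the 4 windows; they occur in 4 and 1 of the 38 and in 9.59% and 6.75% overall. A match describes letters and not a bound site.

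Of the 36 collagen genes with a row in the BMP table, 8 reached the mean of 10 normalised counts needed for testing: Col18a1, Col27a1, Col7a1, Col9a3, Col11a2, Col26a1, Col4a1 and Col4a2. The other 28 did not exceed 36.7 in any sample. Tests used limma on log2(value + 1), with Benjamini-Hochberg adjustment over 14746 genes and a threshold of 0.05. Because the filter used the mean over all groups, a gene high in 1 group alone could pass through that group, and the counts of calls below are a description.

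With BMP2, 4 of the 8 tested collagen genes rose and 1 fell. Over all genes tested, 75.1% passed the threshold with this ligand, 36.8% higher and 38.4% lower, so a share of called genes is not particular to collagens. The median log2 change of the 8 was 1.05, beside -0.03 over all genes. BMP4 lowered 2 and raised none, beside 65.1% of all genes called (33.7% higher, 31.4% lower); the medians were 0.51 and 0.04. BMP5 raised 4 and lowered none, beside 26.3% of all genes called (16.5% higher, 9.87% lower), with medians of 1.13 and -0.03. BMP7 raised 4 and lowered none, beside 32.4% (19.2% higher, 13.2% lower), with medians of 0.90 and -0.05. BMP3 called 0 of the 8 and 0% of all genes by limma at an adjusted p of 0.05; the unadjusted p was 0.22 or more for each of the 8, and edgeR on recovered reads also called 0 genes.

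**Figure D1:**
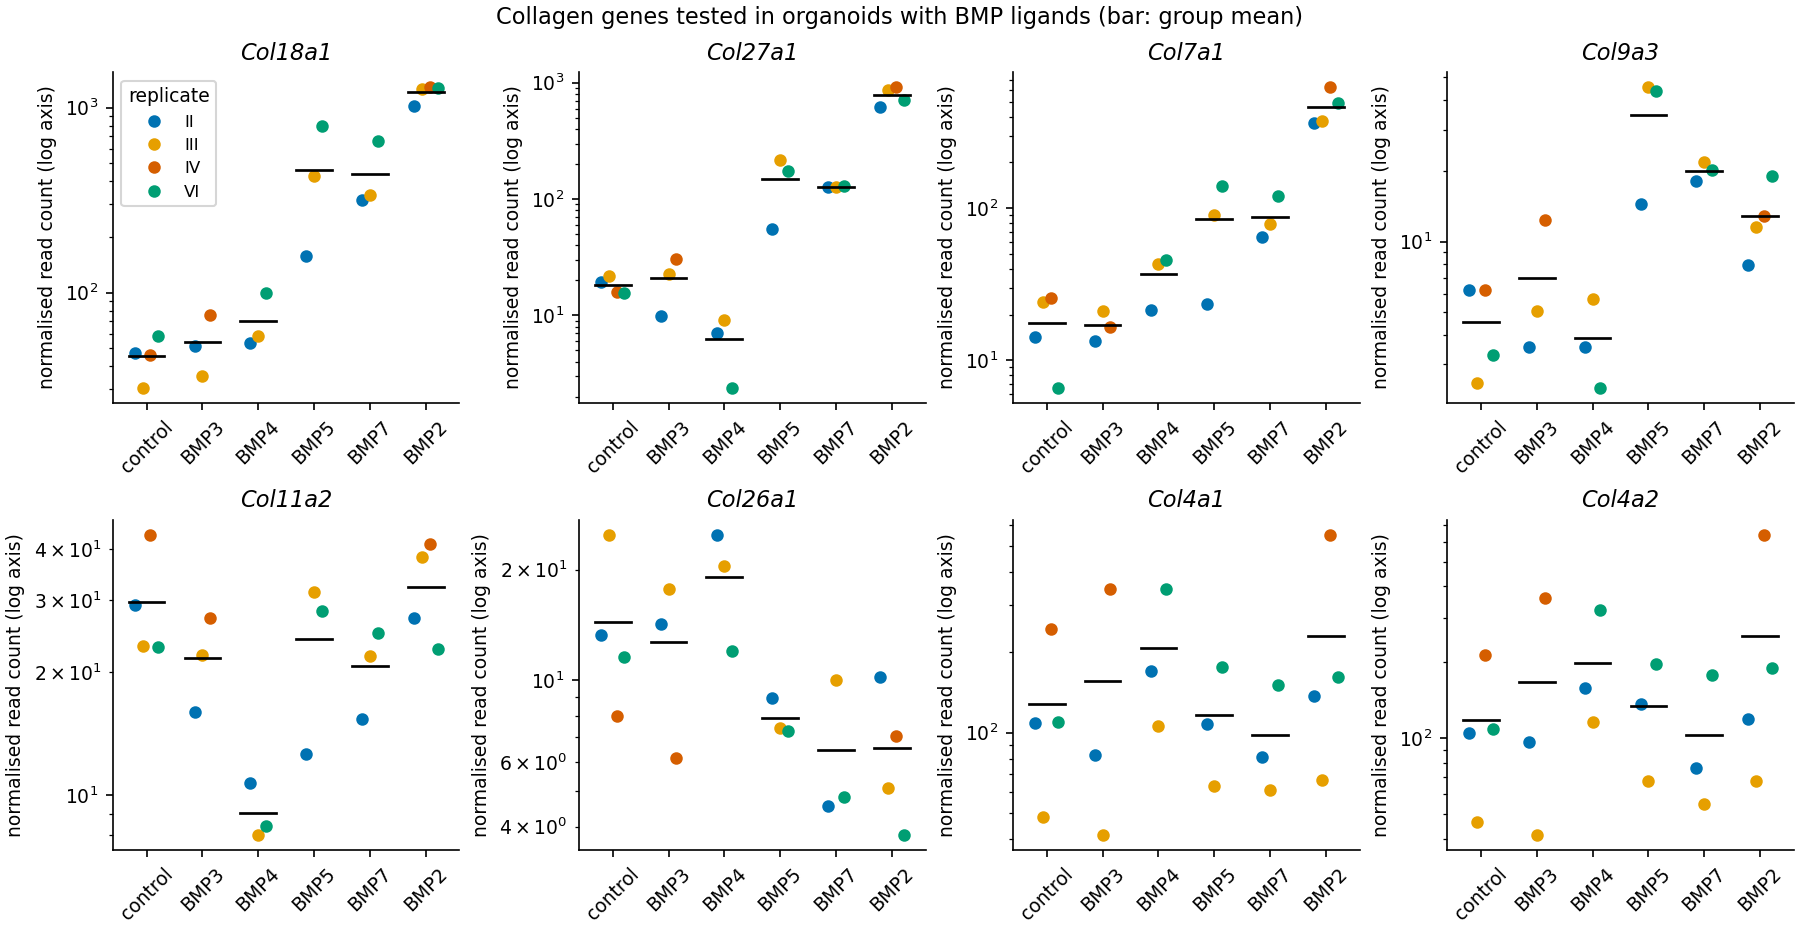
Normalised read counts (log axes) of the 8 tested collagen genes in each organoid sample, by group, coloured by replicate number, with a bar at the group mean. Col18a1, Col27a1 and Col7a1 are highest with BMP2, and Col4a1 and Col4a2 are highest in the libraries numbered IV of the control, BMP2 and BMP3 groups.

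Col18a1 (ENSMUSG00000001435), whose chain XVIII carries the endostatin fragment at its end, was the most abundant collagen transcript with BMP2. Controls had 47.1, 30.7, 46.1 and 58.6 (replicates II, III, IV and VI), and BMP2 samples had 1020, 1260, 1290 and 1280. BMP5 gave 157, 426 and 793 (II, III and VI) and BMP7 gave 317, 339 and 662. Each of these 3 ligands lay wholly above the controls, and BMP2 lay above BMP5 and BMP7. The rise was 26.6-fold with BMP2 (log2 4.73, SE 0.38, limma adjusted p = 1.64e-09), 8.29-fold with BMP5 (log2 3.05, SE 0.41, adjusted p = 2.4e-05) and 9.13-fold with BMP7 (log2 3.19, SE 0.41, adjusted p = 1.02e-05). With BMP4 the values were 53.3, 58.2 and 99.3, which overlapped the controls (log2 0.59, SE 0.41, limma adjusted p = 0.216). With BMP3 they were 51.6, 35.5 and 76.1.

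Its paralogue Col15a1, the other multiplexin gene, stayed under the filter. Controls had 7.10, 0, 4.44 and 2.48 and BMP2 samples had 18.2, 26.9, 11.8 and 36.7, so the groups did not overlap. Without the filter, where 43.4% of all genes were called with BMP2, Col15a1 was called as well (log2 2.68, SE 0.702, limma adjusted p = 0.00336).

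Col7a1 (ENSMUSG00000025650) encodes the chain of the anchoring fibrils. Controls had 14.2, 24.1, 25.7 and 6.61, and BMP2 samples had 366, 376, 625 and 494, a rise of 27.3-fold (log2 4.77, SE 0.464, limma adjusted p = 2.4e-08). BMP7 samples, at 64.4, 79.2 and 121, also lay above every control (log2 2.37, SE 0.501, limma adjusted p = 0.00131). BMP5 samples had 23.3, 89.8 and 140, and the lowest of them overlapped the controls (log2 2.02, SE 0.501, limma adjusted p = 0.00574). That call rests on 1 library: without BMP5 replicate VI the adjusted p was 0.0564. BMP4 samples, at 21.3, 43.3 and 45.5, were not called (log2 1.10, limma adjusted p = 0.0616), but with the replicate number as a block the change was 1.22 with an adjusted p of 0.0211, and each BMP4 sample was 1.5 to 6.88 times the control of its number. It was also called without BMP4 replicate II (adjusted p = 0.0327), control replicate III (0.0434) or control replicate IV (0.0365), with quantile normalisation (0.0334) and with DESeq2 on recovered reads (0.0444), but not with edgeR (0.122).

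Among the fibrillar collagens, Col27a1 (ENSMUSG00000045672), a fibrillar chain known from cartilage, gave the widest range. Controls had 19.5, 21.6, 16.0 and 15.7. BMP2 brought 618, 867, 914 and 713, BMP5 brought 55.6, 217 and 175, and BMP7 brought 126, 126 and 129. BMP4 samples stood at 7.11, 9.13 and 2.39, below every control. Thus Col27a1 rose 40.4-fold with BMP2 (log2 5.34, SE 0.396, limma adjusted p = 5.41e-10), 6.80-fold with BMP5 (adjusted p = 9.88e-05) and 6.72-fold with BMP7 (adjusted p = 7.47e-05). It fell with BMP4 (log2 -1.54, SE 0.427, limma adjusted p = 0.00387). BMP3 samples, at 9.78, 22.8 and 30.6, lay on both sides of the controls.

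Col11a2, a chain of fibrillar type XI collagen, passed the threshold against control with BMP4. Controls had 29.3, 23.2, 43.5 and 23.1 and BMP4 samples had 10.7, 7.99 and 8.38, with no overlap (log2 -1.58, SE 0.332, limma adjusted p = 0.000379). With BMP2 the 4 values, 27.2, 38.4, 41.2 and 22.8, overlapped the controls (log2 0.13, adjusted p = 0.722). The direct contrast of BMP2 with BMP4 was called for Col11a2 (log2 1.71, SE 0.332, limma adjusted p = 0.000172).

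The main stromal fibrillar genes were near the limit of detection in organoids. Col3a1 had at most 4.38, Col5a2 at most 3.50 and Col6a2, of the beaded type VI filaments, at most 0.912. Col1a1 was uneven: with BMP2 it had 10.2, 20.5, 16.5 and 16.5, with BMP7 8.17, 12.8 and 17.3, and in the controls 0.888, 2.49, 19.5 and 0.826. The control replicate IV alone reached the BMP2 level. Without the filter Col1a1 was called with BMP2 (log2 2.06, SE 0.672, limma adjusted p = 0.0164). Its partner chain Col1a2 did not follow: with BMP2 it had 1.14, 0, 16.5 and 1.27, where 16.5 belongs to replicate IV. The libraries numbered IV also held the highest mesenchymal marker sum of their groups: 15.97 in the control, 52.93 with BMP2 and 20.13 with BMP3. In the same 3 libraries Col1a2 had 5.32, 16.5 and 2.63, against at most 1.85 in any other library. Without these 3 libraries, an alternative chosen after seeing the data, the counts of collagen genes called were 5 for the BMP2 group (71.9% of all genes called), 3 for BMP4 (63.5%), 4 for BMP5 (23.5%), 5 for BMP7 (29.4%) and 0 for BMP3 (0%).

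Among the fibril-associated collagens, which decorate fibre surfaces, Col9a3 encodes a chain of type IX collagen. Controls had 6.22, 2.49, 6.21 and 3.30. BMP5 samples had 14.4, 45.4 and 43.8, BMP7 samples had 18.1, 21.9 and 20.2, and BMP2 samples had 7.95, 11.5, 12.9 and 19. All 3 groups lay above the controls, and here BMP2 was not the highest. The rise was 6.00-fold with BMP5 (log2 2.59, SE 0.459, limma adjusted p = 0.000377), 3.98-fold with BMP7 (adjusted p = 0.00267) and 2.51-fold with BMP2 (adjusted p = 0.00873). Col9a3 means in the control, BMP3 and BMP4 groups, at 4.56, 6.98 and 3.88, were under the mean needed for testing. The gene passed that filter through the BMP2, BMP5 and BMP7 samples, so the filter favoured the direction of these calls. With each sample rescaled to the same total, which lowered the 8 genes' BMP2 changes by a median of 0.45, the Col9a3 change with BMP2 was 0.93 with an adjusted p of 0.0555.

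The type IX partner chain Col9a1 went the other way at low level. Controls had 11.5, 9.13, 4.44 and 8.26, BMP2 samples had 1.14, 0, 0 and 0, and BMP4 samples had 0, 1.14 and 0. Without the filter it fell with BMP2 (log2 -2.89, limma adjusted p = 8.44e-05) and with BMP4 (log2 -2.79, limma adjusted p = 0.000387). Col14a1, which binds fibril surfaces, was at 0 to 1.66 in the controls, at 12.6, 12 and 2.74 with BMP5 and at 13.6, 10.0 and 1.92 with BMP7. Without the filter it was called with BMP5 (log2 2.55, adjusted p = 0.00935, 11.6% of all genes called by limma) and BMP7 (log2 2.39, adjusted p = 0.0123, 14.8% called). Col16a1 had 2.66 to 5.81 in the controls and 0, 0 and 1.20 with BMP4 (log2 -1.97, limma adjusted p = 0.00731 without the filter, 34.9% of genes called). These low genes were chosen after their values were seen.

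Col26a1, grouped here with the beaded filament collagens, was the 1 tested collagen gene that fell with BMP2. Controls had 13.3, 24.9, 7.98 and 11.6 and BMP2 samples had 10.2, 5.11, 7.06 and 3.80, and the groups overlapped (log2 -1.0, SE 0.402, limma adjusted p = 0.0322). The call was lost without BMP2 replicate III (adjusted p = 0.0701), BMP2 replicate VI (0.0991), control replicate II (0.0544) or control replicate III (0.131). With BMP7 the values were 4.54, 10.0 and 4.81, which was not called (log2 -1.02, limma adjusted p = 0.0822), and with the replicate block it was (log2 -1.15, adjusted p = 0.0207, 45.4% of all genes called). It was also called without BMP7 replicate III (0.0427) or control replicate IV (0.0482).

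Col4a1 and Col4a2, the chains of the main basement membrane network, differed more between replicate numbers than between ligands. The starts of these neighbouring genes lie 21 bases apart on opposite strands in RefSeq, and whether counting used the strand is not given in the sources used here. Controls had 109, 48.1, 245 and 110 of Col4a1 (II, III, IV and VI), and BMP2 samples had 137, 66.5, 553 and 161. Over the groups, Col4a1 was 41.4 to 106 in libraries numbered III and 245 to 553 in those numbered IV. BMP4 samples had 171, 106 and 345 (II, III and VI), each 1.57 to 3.14 times the control of its number. Col4a2 in BMP4 samples, at 158, 116 and 322, was 1.5 to 2.95 times the control of its number.

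The fit without the replicate number called neither gene with BMP4 (Col4a1 log2 0.75, SE 0.718, limma adjusted p = 0.374; Col4a2 log2 0.80, adjusted p = 0.357). With the replicate number as a block, Col4a1 rose with BMP4 by 1.25 on the log2 scale (SE 0.186, limma adjusted p = 1.66e-05) and Col4a2 by 1.3 (SE 0.215, adjusted p = 5.23e-05). The number of tested collagen genes called with BMP4 went from 2 to 5 under the block, where 71.8% of all genes were called. Col4a2 was also called with BMP5 under the block (log2 0.73, limma adjusted p = 0.0138, 38.9% of all genes called), where its 3 samples were 1.3 to 1.81 times their controls. Neither chain was called with BMP3 or BMP7 in either fit. With BMP2, each of the 4 samples was above the control of its number, 1.26 to 2.26 times for Col4a1 and 1.13 to 3.0 times for Col4a2, and the fit without the replicate number called neither (limma adjusted p = 0.405 and 0.318). Type IV chains Col4a3 and Col4a4, of specialised basement membranes, did not exceed 3.59 and 1.18 in any organoid sample of this table.

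**Figure D2:**
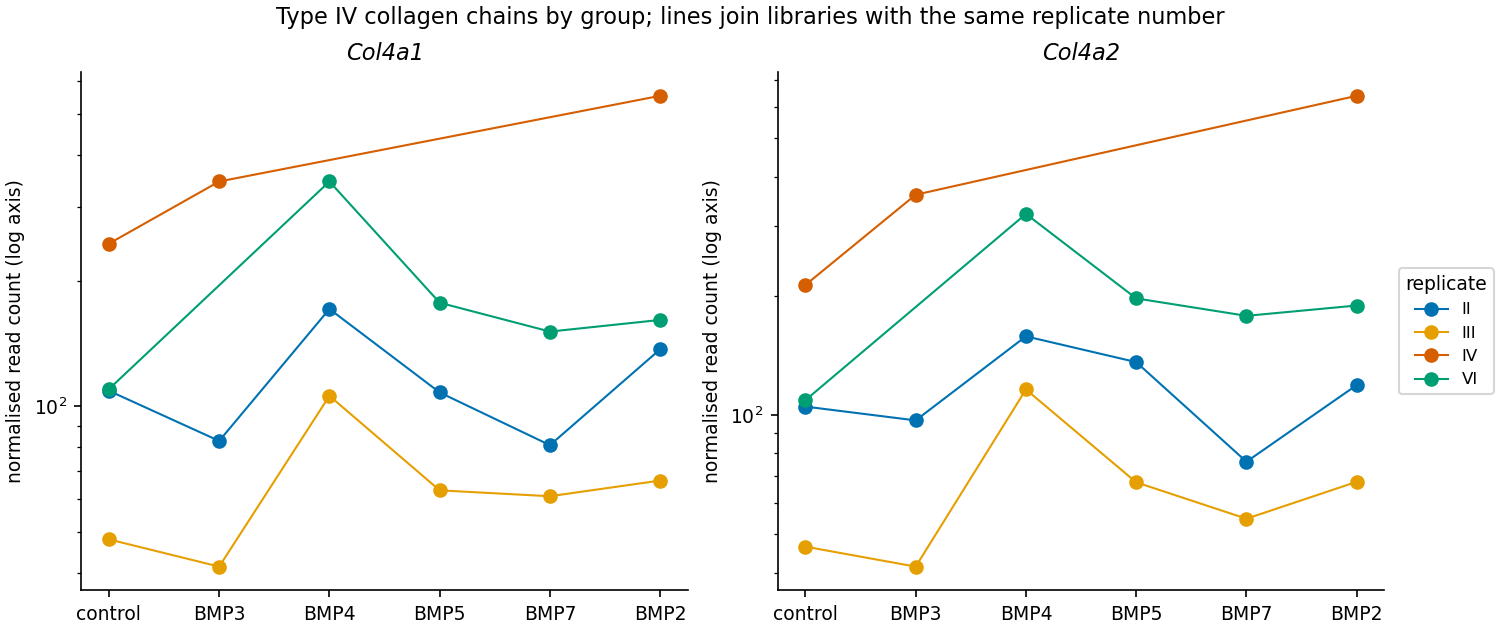
Normalised read counts (log axes) of Col4a1 and Col4a2 in each group, with lines joining libraries that share a replicate number; the BMP4, BMP5 and BMP7 groups have no IV and the BMP3 group no VI. For Col4a1 the lines of III and IV keep apart, with III at 41.4 to 106 and IV at 245 to 553, and the BMP4 point is above the control point of the same line.

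Transmembrane collagens (Col17a1, Col23a1 and Col25a1) and the short-chain Col8a1 and Col8a2 stayed under the filter. Col17a1, of hemidesmosomes, was highest in 1 BMP5 sample at 11.7, where the controls had 6.22, 2.49, 4.44 and 5.78. With BMP7 it had 1.81, 1.82 and 0.962, each below every control.

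**Figure D3:**
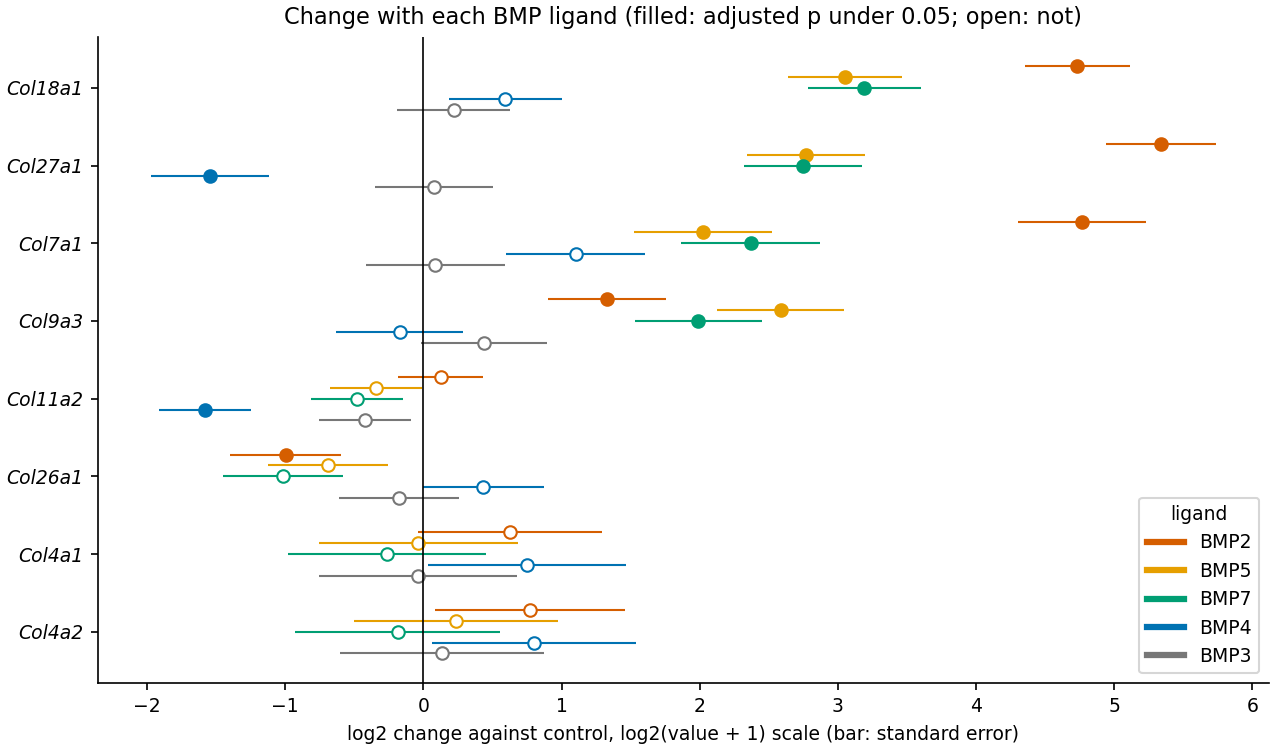
Log2 change against control for the 8 tested collagen genes with each BMP ligand, with standard error bars; filled points passed an adjusted p of 0.05. BMP2 points of Col18a1, Col27a1 and Col7a1 lie at 4.73, 5.34 and 4.77, BMP4 points of Col27a1 and Col11a2 lie at -1.54 and -1.58, and no BMP3 point is filled.

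The ligands were also set against each other at the same dose and time. An F-test among the 5 ligands called 6 of the 8 collagen genes, beside 84.1% of all genes; Col4a1 and Col4a2 were not called in this fit, which leaves out the replicate number (limma adjusted p = 0.596 and 0.666). BMP2 exceeded BMP4 for 5 genes and was below it for 1, beside 66.8% of all genes called, 33.4% in each direction. The largest of these differences was Col27a1 (log2 6.88, SE 0.427, adjusted p = 9.61e-11), followed by Col18a1 (4.14) and Col7a1 (3.67), while Col26a1 was lower (-1.43, limma adjusted p = 0.00726). BMP2 exceeded BMP7 for 3 genes, beside 62.8% of all genes called, and 31.4% of all genes called in this direction: Col27a1 (log2 2.59, SE 0.427), Col7a1 (2.40, SE 0.501) and Col18a1 (1.54, SE 0.41), with limma adjusted p-values of 3.83e-05, 0.000406 and 0.00317. For Col9a3 the difference of BMP2 from BMP7 was -0.66 (SE 0.459, limma adjusted p = 0.219).

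BMP4 and BMP7 differed for 6 collagen genes, 5 lower with BMP4 and Col26a1 higher (log2 1.45, limma adjusted p = 0.0117), beside 59.8% of all genes called (31.4% lower and 28.4% higher with BMP4). Col27a1 was 19.6-fold lower with BMP4, Col18a1 6.06-fold and Col9a3 4.47-fold (limma adjusted p = 2.49e-07, 5.25e-05 and 0.000926). Col11a2 (log2 -1.10, adjusted p = 0.012) lost its call without BMP7 replicate VI (adjusted p = 0.0507), and Col26a1 lost it without BMP4 replicate II (adjusted p = 0.0543). Col7a1 (log2 -1.27, limma adjusted p = 0.0493) lost it without BMP4 replicate II (0.195) or III (0.0587) and without BMP7 replicate III (0.0785) or VI (0.163), and also without the libraries numbered IV (0.0596). The same call was lost with quantile normalisation (0.0801), with a pseudocount of 0.1 (0.0545) and without the filter (0.0753). Under the replicate block Col4a1 and Col4a2 were higher with BMP4 than with BMP7 (log2 1.02 and 0.99, limma adjusted p = 0.000229 and 0.00105), and 8 of 8 collagen genes were called, beside 67.7% of all genes. BMP5 and BMP7 differed for 0 of the 8, beside 0.0136% of all genes called by limma, with an unadjusted p of 0.241 or more for each collagen gene; with the block it was 0 beside 0.0407%. The 95% intervals of that log2 difference ran from -1.06 to 0.78 for Col18a1, from -0.94 to 0.98 for Col27a1 and from -1.47 to 0.78 for Col7a1, so these intervals reach close to a 2-fold difference or past it.

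In the Tgfb table the summed level of the 44 collagen genes was 2.74, 3.49 and 2.36 TPM in the controls (replicates I, II and III) and 20.3, 22.1 and 23.3 TPM with Tgfb. All 3 Tgfb samples lay above the controls. Only Col18a1, Col15a1 and Col27a1 reached the mean of 1 TPM needed for testing, and limma on log2(TPM + 1) called each of them higher, beside 56.7% of 12959 genes called (27.4% higher, 29.3% lower). Each was at 0.402 TPM or less in every control and passed that filter through the Tgfb samples alone, so the direction of these calls was set by the filter.

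Col18a1 had 0.134, 0.103 and 0.181 TPM in the controls and 6.39, 7.72 and 12.4 TPM with Tgfb (log2 3.06, SE 0.235, limma adjusted p = 9.8e-05). Col27a1 had 0.102, 0.141 and 0.0984 TPM in the controls and 4.51, 2.60 and 3.31 TPM with Tgfb (log2 1.98, SE 0.209, limma adjusted p = 0.000368). Col15a1 had 0.402, 0.0871 and 0.0997 TPM and then 2.45, 2.87 and 1.29 TPM (log2 1.40, SE 0.268, limma adjusted p = 0.00493). In none of the 3 did the groups overlap, but these genes passed the filter through the Tgfb samples alone. The share of all genes without overlap was not computed, so this is a description. A pseudocount of 1 TPM understates changes at these levels.

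**Figure D4:**
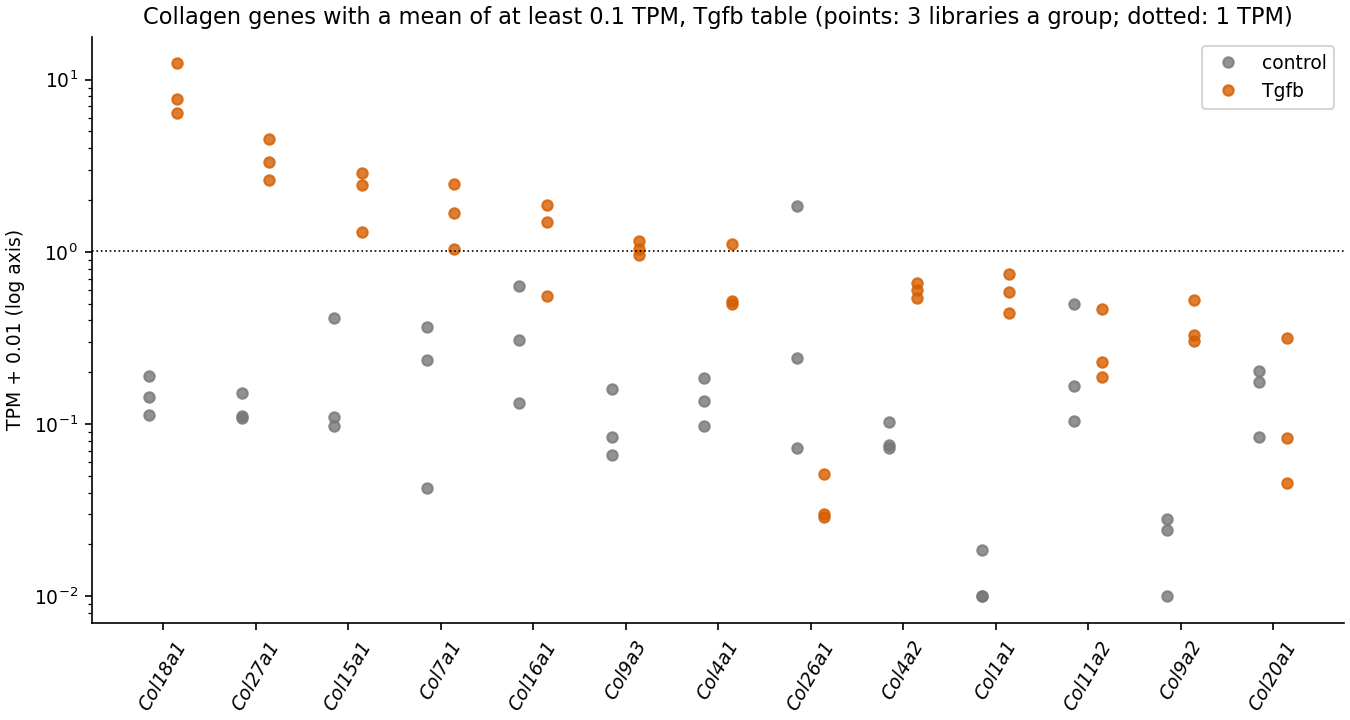
TPM + 0.01 (log axis) of the 13 collagen genes with a mean of at least 0.1 TPM, in 3 control and 3 Tgfb libraries. The Tgfb points of Col18a1, at 6.39 to 12.4 TPM, lie above its control points, at 0.103 to 0.181 TPM, and the Tgfb points of Col26a1, at 0.0187 to 0.0415 TPM, lie below its controls, at 0.0622 to 1.84 TPM.

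With a filter at 0.1 TPM and a pseudocount of 0.1 TPM, chosen after seeing the data, 9 of 13 collagen genes were called, each higher, beside 44.4% of all genes called in either direction and 22% called higher. Col1a1, Col9a2, Col9a3 and Col4a2 had control means under 0.1 TPM and passed that filter through the Tgfb samples, so this count is a description. Anchoring fibril gene Col7a1 had 0.225, 0.356 and 0.0324 TPM in the controls and 1.67, 2.48 and 1.03 TPM with Tgfb (log2 2.68, SE 0.55, limma adjusted p = 0.00852). Col9a3 went from 0.0741, 0.15 and 0.0559 TPM to 0.945, 1.15 and 1.03 TPM (log2 2.59, limma adjusted p = 0.000771), and Col9a2, also of type IX, from at most 0.0181 TPM to 0.294, 0.514 and 0.318 TPM. The third type IX chain, Col9a1, went the other way, from 0.137, 0.161 and 0.172 TPM to 0, 0 and 0.0357 TPM. Its mean over both groups was under 0.1 TPM, so it is not in the count. Basement membrane Col4a1 went from 0.127, 0.0870 and 0.175 TPM to 0.487, 1.10 and 0.506 TPM (log2 1.73, limma adjusted p = 0.0127), and Col4a2 rose by 1.99 (adjusted p = 0.00199). Col1a1 was listed at 0, 0 and 0.00851 TPM in the controls and had 0.733, 0.434 and 0.573 TPM with Tgfb. Its partner Col1a2 was listed at 0 in all 6 samples, as were Col3a1, Col5a1, Col5a2 and 7 further collagen genes. Col26a1 had 0.0622, 1.84 and 0.231 TPM in the controls and 0.0187, 0.0415 and 0.0202 TPM with Tgfb, and control replicate II set the control level. The mesenchymal marker sum was 0.287 to 0.359 TPM in the controls and 0.304 to 0.508 TPM with Tgfb, with Dcn, Lum, Twist2 and Foxf1 at 0 in each sample. Within it Pdgfrb was lower with Tgfb (0.244 to 0.261 TPM, then 0.0194 to 0.0299 TPM). Pdgfra (0.00768 to 0.0183 TPM, then 0.0733 to 0.106 TPM) and Foxf2 (0, then 0.0474 to 0.153 TPM) were higher. Thy1 was also higher (0 to 0.0518 TPM, then 0.0691 to 0.22 TPM), and Dpt and Twist1 overlapped. The epithelial sum was 3344 to 3649 TPM in the controls and 13270 to 18030 TPM with Tgfb, and the immune sum was 0.22 to 0.36 TPM and 1.10 to 2.20 TPM. Their part in the collagen values was not tested.

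Mesenchymal cells held far more collagen RNA than organoids. The fresh sample held 18958 TPM of collagen transcripts, 1.9% of its total, and the immortalised sample 7353 TPM, 0.735%. With 1 sample of each kind there is no test, and a difference was counted when (TPM + 1) changed at least 2-fold in a gene at 1 TPM or more in either sample. Of 28 collagen genes at that level, 12 were lower in the immortalised sample, beside 11.7% of 14359 genes, and 3 were higher, beside 6.69%. Among them, Col14a1, Col15a1 and Col24a1 reached 1 TPM in the fresh sample alone and Col2a1 in the immortalised sample alone. For these genes the filter set the direction, so the counts are a description. The median log2 difference was -0.89, beside -0.03 over all these genes. In these bulk samples fewer cells of a type and less RNA per cell cannot be told apart.

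Fibrillar genes made up 71.02% of collagen TPM in the fresh sample and 45.7% in the immortalised one. Col1a1 went from 5543 to 1483 TPM and Col1a2 from 2816 to 734 TPM, and their ratio was 1.97 and 2.02. Type I collagen is built from both chains. Col3a1, of reticular fibres, went from 3733 to 427 TPM (8.71-fold lower), and its ratio to Col1a1 was 0.673 and 0.288. Type V chains, which start fibrils, were less far apart: Col5a1 had 474 and 262 TPM and Col5a2 850.2 and 428 TPM, the latter 1.98-fold lower and just outside the rule. Col11a1 had 29.3 and 13.0 TPM. Col2a1, the cartilage fibril gene, was higher in the immortalised sample, at 0.0116 and 5.76 TPM.

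The farthest falls were in genes that associate with fibrils or basement membranes. Col14a1 had 344 TPM in the fresh sample and 0.876 TPM in the immortalised one, 184-fold lower on TPM + 1. Col18a1 had 123 and 3.11 TPM (30.2-fold lower) and Col15a1 had 13.6 and 0.0342 TPM (14.1-fold lower). Col12a1, also fibril-associated, had 389 and 179.5 TPM, whereas Col16a1 had 88.0 and 111 TPM and did not pass the rule.

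Basement membrane chains made up 18.77% of collagen TPM in the fresh and 37.75% in the immortalised sample, and none of the 4 at 1 TPM or more was lower by the rule. Col4a1 had 2618 and 1877 TPM, Col4a2 had 885 and 789 TPM, and Col4a5 had 53.7 and 109.7 TPM, 2.02-fold higher and just inside the rule. At a 4-fold rule 5 collagen genes were lower, beside 3.81% of all genes. Type VI chains came apart: Col6a3 had 574 and 555 TPM, Col6a1 131 and 68.7 TPM and Col6a2 53.2 and 11.7 TPM, so the ratio of Col6a1 to Col6a2 was 2.47 and 5.86. Col6a4 had 1.65 and 12.8 TPM. Col8a1 (189 and 249.5 TPM), Col28a1 (13.2 and 9.62 TPM) and Col7a1 (10.4 TPM in each) did not pass the rule.

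**Figure D5:**
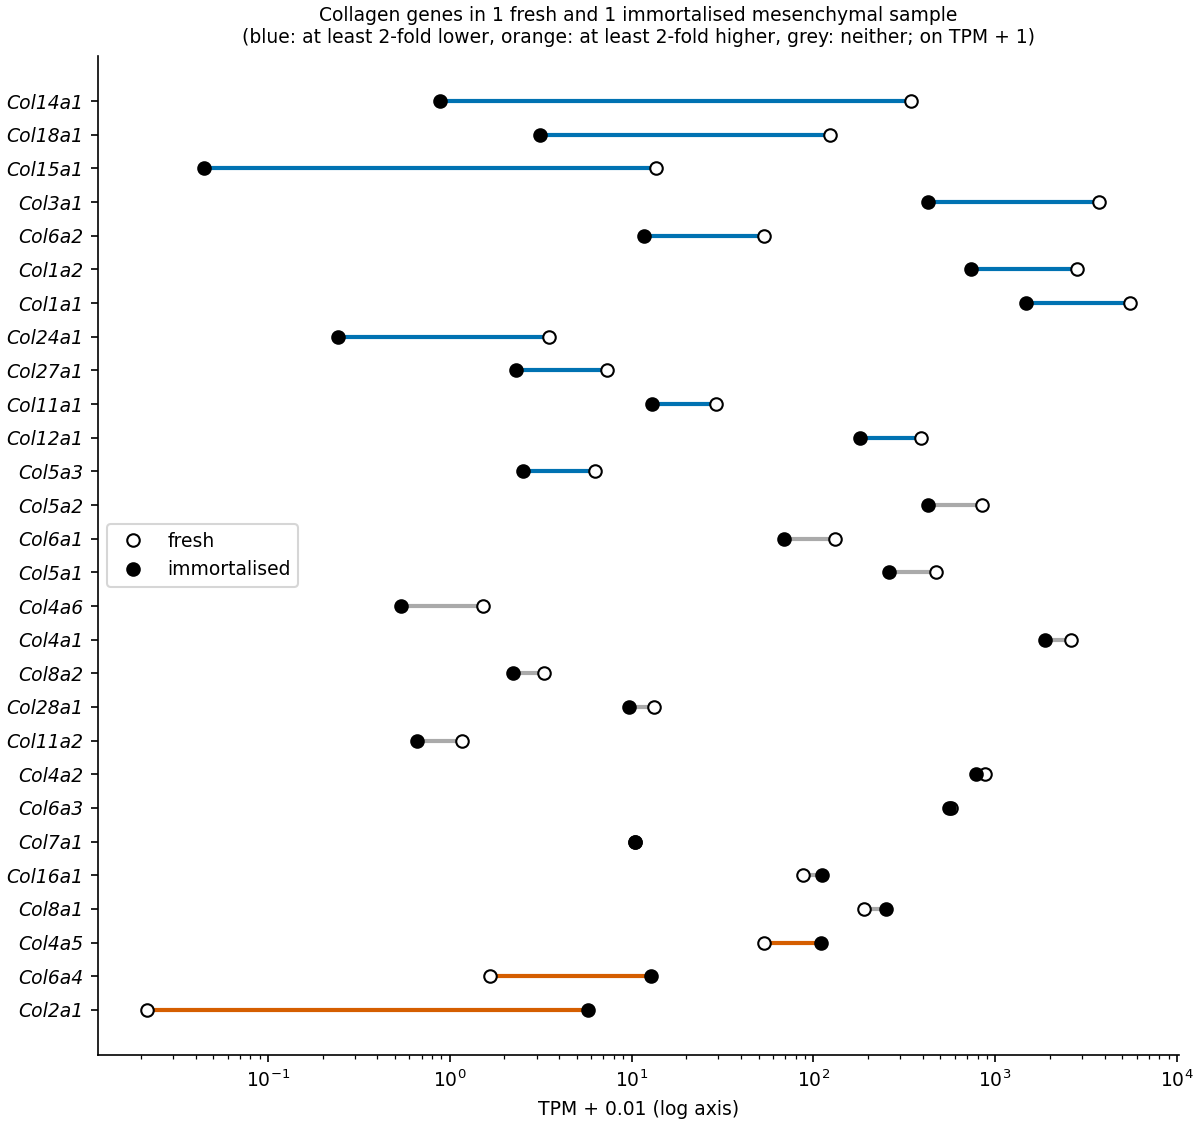
TPM + 0.01 (log axis) of the 28 collagen genes at 1 TPM or more in the fresh (open) or the immortalised (filled) mesenchymal sample, ordered by the log2 difference on TPM + 1. The widest fall on TPM + 1 is Col14a1, from 344 to 0.876 TPM, and the 3 genes at the bottom, Col4a5, Col6a4 and Col2a1, are higher in the immortalised sample.

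Other markers moved between these 2 samples too. The mesenchymal marker sum was 3841 TPM fresh and 1451 TPM immortalised; within it Dcn went from 3201 to 725 TPM and Lum from 251 to 5.76 TPM, while Pdgfra went from 37.5 to 113 TPM and Thy1 from 93.7 to 474 TPM. The smooth muscle sum was 3225 and 3397 TPM, with Des at 197 and 1.13 TPM. Sums over endothelial (17.2 and 1.28 TPM), immune (11.0 and 0.0776 TPM), glial (13.3 and 0.931 TPM) and epithelial (34.2 and 6.76 TPM) markers were lower in the immortalised sample. Within the epithelial sum, Krt18 (19.2 and 0.0868 TPM) and Krt8 (9.10 and 0 TPM) were lower and Krt19 (5.37 and 6.65 TPM) was higher. Cdh1, Vil1 and Cdx2 were at 0 in both samples, and Epcam and Krt20 did not exceed 0.382 TPM. The part of all these markers in the collagen differences was not tested. Pdgfra is the gene reported by the eGFP used to sort the immortalised cells. Immortalisation, puromycin selection, that sorting and expansion are given for the immortalised sample alone, so their parts cannot be told apart.

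The TPM values of organoids and mesenchyme come from tables normalised separately and are set side by side as levels. Col27a1 in Tgfb-treated organoids (2.60 to 4.51 TPM) lay between the immortalised (2.29 TPM) and fresh (7.35 TPM) mesenchymal samples. Col18a1 with Tgfb (6.39 to 12.4 TPM) was above the immortalised and below the fresh sample. Col9a3 with Tgfb (0.945 to 1.15 TPM) was above both mesenchymal samples (0.416 and 0.258 TPM). Col26a1 and Col9a1 were listed at 0 in both.

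The genes that make, mature and bind collagen were taken as 4 lists. Of 24 synthesis and secretion genes, 19 were tested in the BMP table: BMP2 raised 3 and lowered 6 (36.8% and 38.4% over all genes), BMP4 raised 6 and lowered 5 (33.7% and 31.4%), BMP5 raised 1 and lowered 1 (16.5% and 9.87%), and BMP7 raised 2 and lowered 3 (19.2% and 13.2%). The median change with BMP2 was -0.15, beside -0.03 over all genes. Colgalt1, which adds galactose to hydroxylysine, rose with BMP2 (log2 1.61, limma adjusted p = 1.04e-11), BMP5 (1.23), BMP7 (1.28) and Tgfb (1.88) and fell with BMP4 (-0.65, limma adjusted p = 8.94e-06). Creb3l1, a transcription factor of the secretory pathway, fell with BMP2 (-3.10), BMP4 (-1.31), BMP5 (-0.68), BMP7 (-0.79) and Tgfb (-1.37), each with a limma adjusted p of 0.000513 or less. Prolyl 3-hydroxylase gene P3h1 (-2.53) and its partner Crtap (-2.06) fell with BMP4, while the COPII coat genes Sec23a (2.19) and Sec24d (2.18) and the hydroxylase subunit gene P4hb (1.54) rose. With BMP2, P4hb (-0.71) and Ppib (-0.77) fell and Mia2 (1.39) rose. Of 18 synthesis genes tested with Tgfb, 5 rose and 3 fell (27.4% and 29.3% over all genes), among them P4ha2 (1.41, limma adjusted p = 0.000393).

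Of 14 maturation and crosslinking genes, 6 were tested in the BMP table. Each of the 6 rose with BMP2, with BMP5 and with BMP7, where 36.8%, 16.5% and 19.2% of all genes rose; BMP4 raised 3 and lowered 1, beside 33.7% and 31.4%. Loxl2, a lysyl oxidase that crosslinks chains, rose with BMP2 (log2 5.66, SE 0.319, limma adjusted p = 1.43e-11), BMP5 (1.93), BMP7 (2.26) and Tgfb (1.76) and fell with BMP4 (-0.88, limma adjusted p = 0.0314). Bmp1, the procollagen C-proteinase, rose with BMP2 (3.37), BMP5 (1.72), BMP7 (1.87) and Tgfb (3.01), and had 0.11 with BMP4 (limma adjusted p = 0.754). Furin rose with BMP2 (2.38), BMP4 (0.94), BMP5 (1.14), BMP7 (1.35) and Tgfb (2.12), with limma adjusted p-values of 4.32e-05 or less. With Tgfb, 3 of 3 tested genes rose, beside 27.4% of all genes. No test compared this list with other genes.

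Of 11 collagen receptor and uptake genes, 6 were tested in the BMP table. BMP2, BMP5 and BMP7 each raised 5, beside 36.8%, 16.5% and 19.2% of all genes, and BMP4 raised 2 and lowered 3, beside 33.7% and 31.4%. Tgfb raised 5 of 5 tested, beside 27.4%. Itga2, the integrin chain that binds collagen, rose with BMP2 (log2 2.99), BMP5 (1.68), BMP7 (1.84) and Tgfb (2.38) and fell with BMP4 (-0.30, limma adjusted p = 0.036). Itgb1 and the kinase gene Ddr1 rose with BMP2 (2.54 and 2.50), BMP4 (0.68 and 0.95), BMP5 (0.87 and 1.39), BMP7 (1.00 and 1.52) and Tgfb (1.43 and 2.29). Adgrg1, an adhesion receptor that binds type III collagen, fell with BMP4 (-1.36) and rose with BMP2 (1.28), BMP5 (1.59), BMP7 (1.32) and Tgfb (1.97). Itga10 fell with BMP2 (-1.70, limma adjusted p = 0.00134).

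Of 15 proteoglycan and fibril partner genes, 4 were tested in organoids. Fibronectin gene Fn1 rose with BMP2 (log2 6.81, SE 0.403, limma adjusted p = 2.57e-11), BMP5 (3.72), BMP7 (3.81) and Tgfb (2.96), and had -0.13 with BMP4 (limma adjusted p = 0.817). Thbs1 rose with BMP2 (4.63), BMP5 (3.42), BMP7 (3.32) and Tgfb (5.56) and fell with BMP4 (-2.08). Tgfbi fell with BMP2 (-2.90), BMP5 (-1.07), BMP7 (-1.33) and Tgfb (-1.53) and rose with BMP4 (2.12, limma adjusted p = 1.94e-06). Prelp fell with BMP2 (-9.60), BMP4 (-8.00), BMP7 (-1.35) and Tgfb (-2.51). BMP3 called 0 of the genes on the 4 lists by limma, with an unadjusted p of 0.129 or more for each.

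In mesenchyme, 21 of 23 synthesis genes at 1 TPM or more differed less than 2-fold between the fresh and immortalised samples. Of all genes at that level, 11716 of 14359 did so, so this is not particular to the list. Serpinh1, the collagen chaperone gene, had 1990 and 1540 TPM. Among 15 proteoglycan and partner genes, 8 were lower and 1 higher in the immortalised sample, beside 11.7% and 6.69% of all genes, with a median log2 difference of -1.67, beside -0.03. Tgfbi had 61.2 and 0.544 TPM and Thbs1 had 235 and 1120 TPM. Of 13 maturation and crosslinking genes at 1 TPM or more, 2 were higher, Tll1 (8.39 and 27.3 TPM) and Pcolce2 (4.97 and 31.7 TPM), and 2 were lower, Loxl2 (524 and 152 TPM) and Adamts2 (71.7 and 14.2 TPM). Lox, at 361 and 443 TPM, did not pass the rule.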

How the data were processed

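RNA of 28 samples was sequenced as 75-nucleotide single reads. The deposited BMP table holds a normalised count signal, in which the reads of each gene were divided by a size factor of the sample and rounded to 3 significant digits. Of 180236 values of 20 reads or fewer, 100% were whole reads within 0.15 reads after division by the value of 1 read, so depth was recovered (21358620 to 24784834 reads per sample). The other deposited tables hold TPM, whose columns sum to 1000000, and their depth is unknown. Per the submitters' processing notes, Trim Galore, Salmon, DESeq2 and build GRCm39 were used; versions, annotation and the use of strand are not given in the sources used here.

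Organoid groups were compared with limma 3.58.1 (R 4.3.3, trend) on log2(value + 1), BMP groups in 1 fit, for genes with a mean of at least 10 normalised counts (14746 genes) or 1 TPM (12959 genes). P-values were adjusted over all genes tested, with a threshold of 0.05. The fits were also run on simulated data, which held no effect of the replicate number and so do not check single calls here. Mesenchymal samples were compared by fold only. Alternatives were edgeR 4.0.16 and DESeq2 1.42.0 on recovered reads, other filters, pseudocounts and scalings, each replicate left out, and a block for the replicate number. Labels number the organoid replicates. Deviations of same-numbered samples from their group means correlated above 0.1 in every pair for BMP3, BMP4, BMP5 and BMP7 against control (r = 0.158 to 0.553), for BMP4 against BMP7 (0.206 to 0.293) and for BMP5 against BMP7 (0.15 to 0.489). Blocked values are printed there where a call changed. What a number stands for is not given.

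Genes named are every collagen gene past the threshold and the 3 most abundant that were not, every collagen gene at 10 TPM or more in mesenchyme, and up to 3 genes per direction from each list. Lower collagen genes were chosen after their values were seen. The collagen genes, lists and tests were chosen with earlier results of these data known. Sequences are from RefSeq on GRCm38.p6, which is not the build of the tables.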

Additional observations from a re-analysis of the deposited data

Results flagged for a closer look

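In groups of 4 samples, 7 of 44 collagen gene and group combinations had 1 sample set apart from the other 3 by Dixon's criterion. About 1 of 20 groups of normally distributed values meets that criterion. Low counts with ties at 0 are not so distributed, so 7 of 44 cannot be judged against that rate. In the BMP2 group, Col18a1 in replicate II was 1020, below the others at 1260 to 1290. The remaining 6 lay above the others of their group, and 5 of the 7 were in libraries numbered IV. With BMP2, replicate IV had 16.5 of Col1a2 (others 0 to 1.27), 9.41 of Col4a5 (others 4.54 to 5.11) and 4.71 of Col6a3 (others 0). In the controls, replicate IV had 19.5 of Col1a1 (others 0.826 to 2.49) and 5.32 of Col1a2 (others 0 to 0.83), and replicate VI had 8.26 of Col9a2 (others 1.66 to 1.78). These 6 values are under 20 normalised counts.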

How the results depend on the processing

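Among the recomputed changes of the tested collagen genes, 1113 kept their side of the threshold, 20 became called, 17 lost their call and 0 reversed. Among the recomputed counts, 156 stayed within 1.5 times the count reported and 14 did not; the cause was not tested beyond the number of genes each filter leaves. Without the filter on low values the collagen genes called were 9 for BMP2 (43.4% of all genes called) and 8 for BMP4 (34.9%). They were 6 for BMP2 against BMP7 (33%), 12 for the F-test among ligands (48.5%) and 11 for Tgfb (29.8%). With a mean of at least 50, where 5 collagen genes remain, they were 3 for BMP2 (80.4% of all genes called), 1 for BMP4 (71.6%), 3 for BMP2 against BMP4 (73%), 3 for BMP4 against BMP7 (66%) and 3 for the F-test (89.9%). No collagen gene reached a mean of 10 TPM in the Tgfb table (0 called). At 0.1 TPM with a pseudocount of 0.1, chosen after seeing the data, 9 were called (44.4% of all genes). At 4-fold, 5 collagen genes were lower in immortalised mesenchyme, beside 3.81% of all genes. Leaving out each replicate in turn gave 4 to 5 for BMP2 (72.6% to 74.2% of all genes called), 2 to 3 for BMP4 (60.9% to 63.0%), 3 to 4 for BMP5 (17.1% to 29.1%), 4 to 5 for BMP7 (23.9% to 31.7%), 4 to 6 for BMP4 against BMP7 (54.7% to 58.1%), 6 for BMP2 against BMP4 (62.3% to 66.1%), 3 for BMP2 against BMP7 (56.9% to 62.2%), 3 for Tgfb (48.9% to 52.2%) and 0 for BMP3 and for BMP5 against BMP7 (at most 0.061%).

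With the replicate block the count was 5 for BMP4 (71.8% of all genes called), 5 for BMP5 (38.9%) and 5 for BMP7 (45.4%). It was 8 for BMP4 against BMP7 (67.7%), 0 for BMP3 (0%) and 0 for BMP5 against BMP7 (0.0407%). Same-numbered samples did not all correlate above 0.1 for BMP2 against control (r = 0.018 to 0.421), against BMP4 (-0.04 to 0.298) or against BMP7 (-0.107 to 0.218), or for Tgfb (0.004 to 0.07). There the blocked counts were 7 for BMP2 (80.4% of all genes called), 8 for BMP2 against BMP4 (72.6%), 3 for BMP2 against BMP7 (69.8%), 8 for the F-test (89.3%) and 3 for Tgfb (58.7%). The block called Col4a1 and Col4a2 with BMP2 (log2 0.63 and 0.77, limma adjusted p = 0.00278 and 0.00176), against BMP4 (-0.62 and -0.53, adjusted p = 0.00661 and 0.0382) and in the F-test (adjusted p = 0.000238 and 0.00231), and a sample correlated best with its own number in 3 of 4, 2 of 3, 2 of 3 and 1 of 3 pairs.

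Rescaling each sample to the same total moved the tested collagen genes' log2 changes by a median of -0.45 (BMP2), -0.38 (BMP4), -0.39 (BMP2 against BMP7) and -0.31 (BMP4 against BMP7). The share of higher genes among all calls went from 48.9% to 31.8%, from 51.7% to 31.1%, from 50.1% to 26.7% and from 47.5% to 28.7%. For BMP7 it went from 59.4% to 48.7%, and with quantile normalisation to 49.7%; for BMP5 it went from 62.5% to 51.2% with quantile normalisation. For low genes depth is the limit, since 1 read was worth 0.83 to 1.28.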
